A study of Mus musculus with 9 samples.

Results

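Ribosome biogenesis and transcription by RNA polymerase I were followed in RAW264.7 cells, a mouse macrophage line, through 39 genes listed by name, a list drawn up with earlier results of these data known. All 39 were found among the 26146 genes of the deposited table. All 39 also passed the filter on low values, an FPKM (fragments per kilobase of transcript, scaled to library size) of 1 or more in 3 or more of the 9 libraries, which left 11536 genes for testing. The study sequenced poly(A) RNA from untreated cells (Normal), from cells given lipopolysaccharide (LPS), a component of the bacterial outer membrane that activates macrophages, and from cells given LPS together with a Traditional Chinese Medicine extract, with 3 libraries in each of the 3 groups. All groups were the same cell line without a stated genetic change, and no dose, exposure time or plant of the extract was given in the sources used here. The labels of the treated groups contradict each other. Samples titled LPS name table columns called ET but a library called M, and samples titled LPS+Extract name columns called M but a library called ET. The groups are therefore called ET and M after their columns: by titles and columns ET had LPS and M had LPS with extract, and by library names the reverse. The mean of ET and M against Normal is the same comparison under both readings.

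Ribosomes are assembled largely in the nucleolus, where RNA polymerase I copies the ribosomal DNA into a long precursor. Small nucleolar RNA-protein particles (snoRNPs) modify its nucleotides and guide its cutting, the small-subunit processome folds and cuts the part that becomes the small subunit, and a separate set of factors processes the large subunit. The pathway is costly for a cell and follows growth signals, the transcription factor Myc among them.

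The Normal libraries held 56921531 to 76242718 counts, the ET libraries 55039858 to 62962615 and the M libraries 57796361 to 60881764. In a principal component analysis, component 1 (91.5% of the variance) separated Normal from treated libraries. Component 2 (2.87%) separated ET and M and placed ET replicate 3 at -5.47, between the other ET libraries (-12.7 and -12.6) and M (9.44 to 10.4). All 10 macrophage markers had a mean FPKM of at least 1 in each group. No lymphocyte or fibroblast marker reached a mean of 1 in any group. Of 4 granulocyte markers in the table only S100a8 reached a mean of 1, at 0.0223 FPKM in Normal but 42.3 (ET) and 44.5 (M) after treatment, while the means of Elane, Mpo and S100a9 lay between 0 and 0.201. The summed level of this list was 0 to 0.129 FPKM in Normal, against 37.8 to 46.9 (ET) and 41.4 to 47.5 (M). Of 3 epithelial and endothelial markers Pecam1 went from 0.811 to 2.69 and 3.11, and the summed level was 0.768 to 0.953 in Normal, against 2.78 to 3.24 (ET) and 3.2 to 3.55 (M). Their part in the results was not tested. The libraries are bulk RNA, so that fewer cells with a transcript and less transcript per cell cannot be told apart. Replicates were not stated to be separate cultures, so p-values measure the spread between these libraries, which may be technical.

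The module as a whole did not move in one direction. Of the 39 genes, 15 rose and 13 fell in the mean of ET and M against Normal, and 11 were not called, at an adjusted p under 0.05 in edgeR's quasi-likelihood test with Benjamini-Hochberg adjustment over all genes tested. Over all 11536 genes 36.8% were called higher and 36.8% were called lower. The median log2 change of the 39 was 0.011, against -0.014 over all genes tested, and none of the 39 was called with a change of 2-fold or more, where 10.6% of all genes were called 2-fold or more higher and 5.07% lower. The largest rises were those of Rrp9, Utp4, Rrn3 and Nop16, and the largest falls those of Ubtf, Fbl, Dkc1 and Gar1. Together the 39 genes held 0.952% to 0.989% of all counts in Normal, against 0.817% to 0.894% (ET) and 0.895% to 0.921% (M), so every treated library lay below every Normal library. This share rests on total counts and is weighted to abundant genes, so it does not describe most of the 39. Ncl and Npm1 held 147484 and 116605 of the 607195 counts of the 39 in Normal replicate 1. In ET replicate 2 they held 93094 and 72233 of 449506. The scaling matters for small changes: with total counts in place of trimmed-mean (TMM) factors the median of all genes moved by -0.086, and 12 of the 39 were called higher and 19 lower, where 31.2% of all genes were called higher and 43.8% lower.

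**Figure D1:**
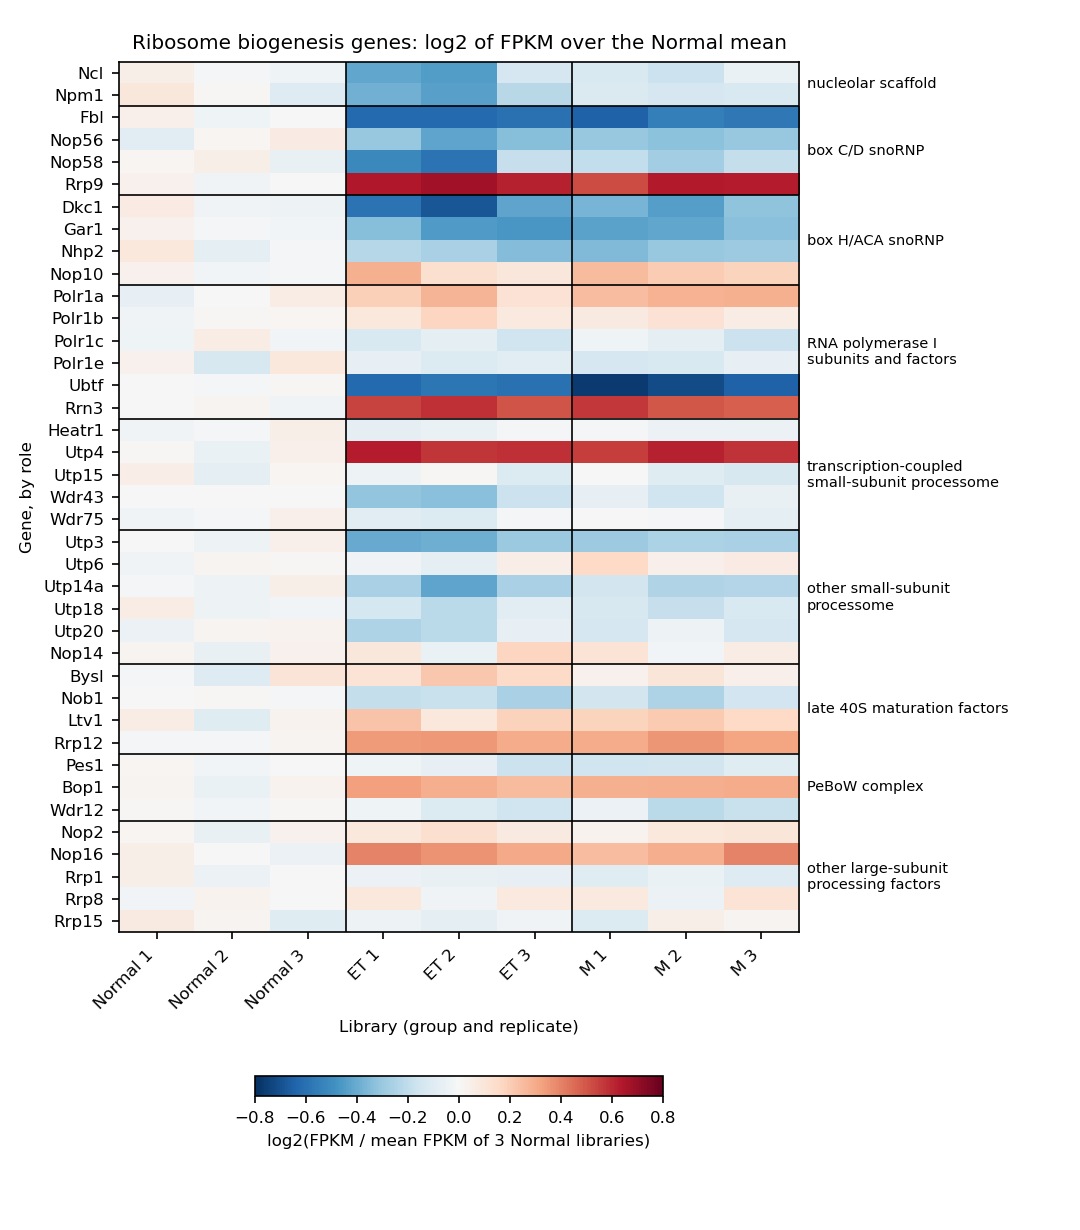
Log2 of each gene's FPKM over its mean in the 3 Normal libraries, for the 39 genes (rows, grouped by role) in 9 libraries (columns); red is above and blue below the Normal mean. Rows such as Rrp9, Utp4 and Rrn3 are red in all 6 treated libraries and Fbl and Ubtf blue in all 6, while Ncl, Nop58 and Dkc1 are bluest in ET replicates 1 and 2.

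Set apart by group, 14 of the 39 rose and 13 fell in ET against Normal, where 35.0% of all genes were called higher and 35.2% lower. In M against Normal 14 rose and 7 fell, where 35.5% of all genes were called higher and 34.5% lower. These 2 comparisons share the Normal libraries. With total counts as the scaling 12 of the 39 were higher and 17 lower in ET, where 30.1% of all genes were called higher and 41.4% lower. In M that scaling gave 9 higher and 14 lower, where 29.9% of all genes were called higher and 41.3% lower. Median log2 changes of the 39 were 0.0079 in ET and 0.0041 in M, against -0.018 and -0.0073 over all genes.

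**Figure D2:**
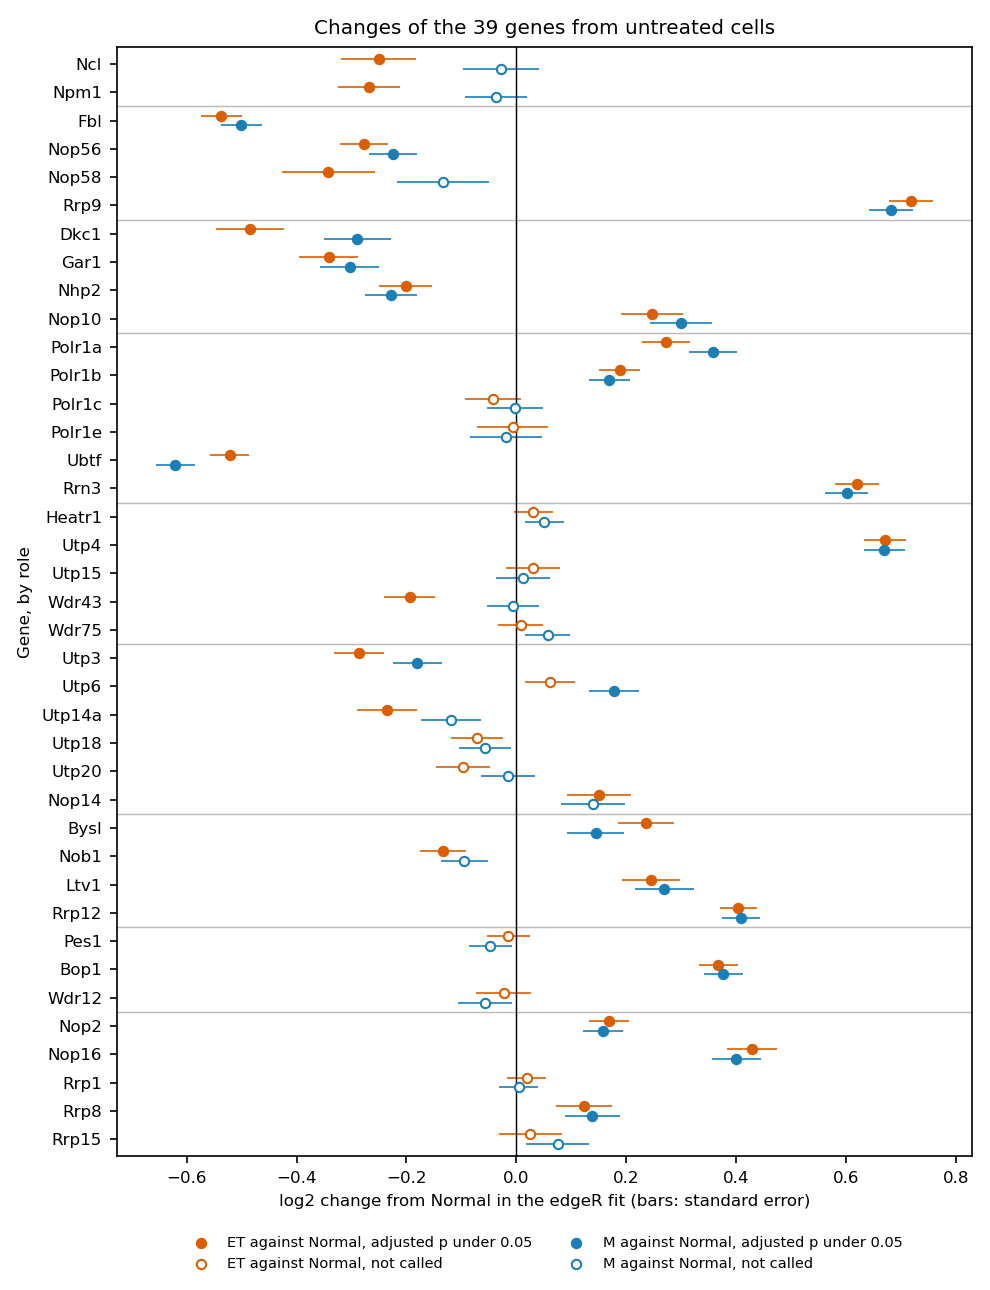
Log2 change of each of the 39 genes from Normal in ET (orange) and M (blue), with the standard error of the edgeR fit as bars; filled points passed an adjusted p of 0.05 and open points did not. For most genes both points lie close together, from Rrp9 (0.72 and 0.68) to Ubtf (-0.52 and -0.62), and for Ncl, Npm1, Nop58, Dkc1 and Wdr43 the ET point lies further to the left.

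Promoters are shown for the member with the largest rise and the member with the largest fall, Rrp9 and Ubtf, and for the changed members that carry the letters CACGTG, the E-box to which Myc family factors bind, Rrn3 and Nop2. They come from the RefSeq promoter table on GRCm38.p6, which held 34 of the 39 genes, without Npm1, Fbl, Utp6, Rrp12 and Bop1. Each sequence is the longest stretch without an annotated exon in the 250 bases before the transcript start, written 5′ to 3′ on the gene's strand, with CACGTG in capitals.
Rrp9: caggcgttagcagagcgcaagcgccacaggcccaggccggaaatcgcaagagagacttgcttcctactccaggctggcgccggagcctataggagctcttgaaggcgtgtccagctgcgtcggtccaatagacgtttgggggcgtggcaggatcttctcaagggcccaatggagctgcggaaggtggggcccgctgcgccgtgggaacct
Ubtf: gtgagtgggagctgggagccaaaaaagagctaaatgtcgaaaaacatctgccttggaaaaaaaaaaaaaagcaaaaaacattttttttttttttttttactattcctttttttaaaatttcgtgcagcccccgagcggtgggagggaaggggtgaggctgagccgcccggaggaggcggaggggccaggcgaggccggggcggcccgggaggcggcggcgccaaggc
Rrn3: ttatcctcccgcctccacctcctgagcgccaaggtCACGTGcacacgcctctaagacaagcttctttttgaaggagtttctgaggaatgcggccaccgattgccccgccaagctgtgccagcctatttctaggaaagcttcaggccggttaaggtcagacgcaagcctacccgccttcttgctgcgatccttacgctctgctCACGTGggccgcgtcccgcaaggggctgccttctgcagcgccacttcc
Nop2: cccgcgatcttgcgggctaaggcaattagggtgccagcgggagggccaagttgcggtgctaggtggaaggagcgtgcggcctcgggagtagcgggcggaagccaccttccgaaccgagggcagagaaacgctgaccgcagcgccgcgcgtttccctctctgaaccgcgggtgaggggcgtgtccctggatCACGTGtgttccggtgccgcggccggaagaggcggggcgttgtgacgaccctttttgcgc
The Rrp9 sequence is chr9:106477059-106477268 on the plus strand, which lies inside the deposited span of Rrp9 but outside annotated exons, and has 63.8% G and C. The Ubtf sequence is chr11:102319097-102319323 on the minus strand, before 1 of 6 starts in the table, has 53.3% G and C and holds long runs of A and T. The Rrn3 sequence is chr16:13780449-13780698 on the plus strand and holds CACGTG 215 and 48 bases before the start. The Nop2 sequence is chr6:125131633-125131882 on the plus strand and holds it 60 bases before the start. CACGTG reads the same on both strands, so one search covers both. In the 250 bases before the start it was found in 3 of the 34 genes (8.82%), the third being Utp18 at 20 bases before the start, against 1854 of 27025 genes (6.86%) in the whole table. Among members it stood in 2 of 12 that rose, 0 of 11 that fell and 1 of 11 that were not called. A match says only that these letters are present, and no match says only that they are not in this window.

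Genes of RNA polymerase I moved both ways, with 3 of 6 higher, 1 lower and 2 not called in the treated mean. The shares over all genes were 36.8% higher and 36.8% lower, which is the background for each role group below. Rrn3 (ENSMUSG00000022682, chromosome 16, 13780708 to 13814839), the initiation factor that makes the polymerase able to start, stood at 17.6, 17.9 and 17.3 FPKM in Normal, 25.6, 26.4 and 24.9 in ET and 26, 24.8 and 24.5 in M. Every treated library lay above every Normal library. The log2 change of the treated mean was 0.61 (SE 0.035), adjusted p = 4.96e-09, with 0.62 in ET and 0.60 in M. Ubtf (ENSMUSG00000020923, chromosome 11, 102304560 to 102319096), the DNA-binding factor that keeps ribosomal genes open and recruits the polymerase, went the other way, with 46.8, 46.3 and 46.9 FPKM in Normal, 30.4, 31.2 and 30.9 in ET and 27.4, 28.4 and 29.8 in M. Both treated groups lay wholly below Normal, and every M library lay below every ET library. Its log2 change was -0.57 (SE 0.030), adjusted p = 2.28e-09, the largest fall of the 39. Between M and ET the Ubtf difference of -0.10 was not called (adjusted p = 0.1).

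Polr1a, the largest subunit of the polymerase, stood at 13, 13.6 and 14.1 FPKM in Normal, 15.5, 16.4 and 14.7 in ET and 16.1, 16.5 and 16.5 in M. The lowest treated library lay above the highest Normal one, and the log2 change was 0.32 (SE 0.038), adjusted p = 7.95e-06. Polr1b, its partner in the catalytic core, gave 15.5, 15.9 and 16 FPKM in Normal, 16.7, 17.8 and 16.7 in ET and 16.6, 17.1 and 16.5 in M. The groups did not overlap here either, and the log2 change was 0.18 (SE 0.033), adjusted p = 0.000297. In M alone this rise was 0.17 and was not called with total counts as the scaling (adjusted p up to 0.0928 over the alternatives). Polr1c, a subunit that RNA polymerases I and III share, and Polr1e, a subunit found only in RNA polymerase I, were not called, with log2 changes of -0.022 and -0.013. Polr1c was called lower with total counts as the scaling and in limma on FPKM (down to -0.11). Per length, Ubtf was the most abundant of these 6 in Normal (46.7 ± 0.321 FPKM, SD, n = 3), above Polr1c (26.2 ± 0.932) and Rrn3 (17.6 ± 0.313), and Polr1e the least (8.32 ± 0.629). In ET the level of Rrn3 was 25.6 ± 0.714 and that of Ubtf 30.8 ± 0.425, and in M they were 25.1 ± 0.814 and 28.6 ± 1.21.

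Both nucleolar scaffold genes fell in the treated mean, by little, where 36.8% of all genes were called lower. Npm1 (ENSMUSG00000057113, chromosome 11, 33152287 to 33163206), the abundant chaperone of the nucleolus's outer layer, stood at 664, 628 and 582 FPKM in Normal, 479.5, 462 and 535 in ET and 576, 569 and 575 in M and was the most abundant of the 39 per length in every library. Its treated log2 change was -0.15 (SE 0.048), adjusted p = 0.0126, and was not called without Normal replicate 1 (-0.10, adjusted p = 0.0941). Ncl, nucleolin, which binds the precursor RNA and its chromatin, gave 219.7, 210.5 and 207 FPKM in Normal, 159, 156 and 194 in ET and 195, 189 and 205 in M. ET replicates 1 and 2 lay far below the other 7 libraries, among which the M libraries and ET replicate 3 were just below Normal. The treated log2 change of Ncl was -0.14 (SE 0.059), adjusted p = 0.0495. That call held without ET replicate 3 (-0.19, adjusted p = 0.000143) and was lost without any one of the other 8 libraries (adjusted p from 0.0508 to 0.176). In ET alone Ncl fell by 0.25 on the log2 scale (adjusted p = 0.00581) and Npm1 by 0.27 (adjusted p = 0.000946), and in M alone neither was called (-0.028 and -0.037).

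Of the 4 box C/D snoRNP genes 3 fell and 1 rose, where 36.8% of all genes were called lower and 36.8% higher. These particles add methyl groups to the ribose of precursor RNA. Fbl, fibrillarin, their methyltransferase, stood at 64.7, 61.4 and 62.7 FPKM in Normal, 40.8, 40.9 and 41.6 in ET and 40.1, 43.1 and 42.3 in M. The 6 treated libraries lay within 40.1 to 43.1 FPKM, far below Normal, and the log2 change was -0.52 (SE 0.032), adjusted p = 1.09e-08. A pseudogene of Fbl had its own row in the table, with a mean count of 1.19% of that of Fbl. Nop58, which with Nop56 forms the scaffold of the particle, stood at 24.7, 25.2 and 23.5 FPKM in Normal, 17.1, 16.2 and 21.6 in ET and 21.4, 20.2 and 21.4 in M, so that ET replicate 3 lay with the M libraries and apart from the other ET libraries. Nop56 and Nop58 fell by 0.25 and 0.24 in the treated mean (adjusted p = 4.63e-05 and 0.00961). Nop56 fell in both groups (-0.28 in ET and -0.22 in M), whereas Nop58 was called in ET (-0.34, adjusted p = 0.00282) and not in M (-0.13, adjusted p = 0.174), with the difference between M and ET itself not called. Its fall in M was called with total counts, in limma on log2(FPKM + 1), in the fit of the 6 libraries compared and without ET replicate 3 (-0.13, adjusted p = 0.0136). Rrp9 (ENSMUSG00000041506, chromosome 9, 106475963 to 106485424), which binds only the U3 snoRNP, the particle that guides cutting rather than methylation, had the largest rise of the 39. Its levels were 23.4, 22.4 and 22.8 FPKM in Normal, 35.6, 36.4 and 35 in ET and 32.8, 35.4 and 35.3 in M. The groups were far apart, and the log2 change was 0.70 (SE 0.036), adjusted p = 1.71e-09, a 1.62-fold rise. The deposited span of Parp3 on the other strand shares 987 bases with that of Rrp9, with a mean count of 10.0% of that of Rrp9, and no source used here gives the strand setting of the counting.

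Box H/ACA snoRNP genes, whose particles convert uridine to pseudouridine, showed the same count, 3 lower and 1 higher of 4, beside 36.8% and 36.8% of all genes. Dkc1, dyskerin, the pseudouridine synthase, stood at 43.3, 40.5 and 40.2 FPKM in Normal, 27.4, 25.8 and 30.8 in ET and 32, 30.5 and 33 in M. All treated libraries were below Normal, with ET replicates 1 and 2 lowest. The log2 change was -0.39 (SE 0.053), adjusted p = 2.31e-05, with -0.48 in ET and -0.29 in M. Gar1, which binds dyskerin and aids its turnover on the RNA, gave 34.3, 33.2 and 33 FPKM in Normal, 26.5, 24.5 and 24.2 in ET and 24.9, 25.2 and 26.6 in M. The treated groups overlapped each other and lay below Normal, with a log2 change of -0.32 (SE 0.046), adjusted p = 3.46e-05. Nhp2, a core protein that binds the guide RNA, fell by 0.21 (adjusted p = 0.000414). Nop10, the small protein that links dyskerin to Nhp2, rose by 0.27 (adjusted p = 0.000277), from a mean of 45.3 ± 0.930 FPKM to 51 ± 3.67 in ET and 52.5 ± 1.46 in M.

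**Figure D3:**
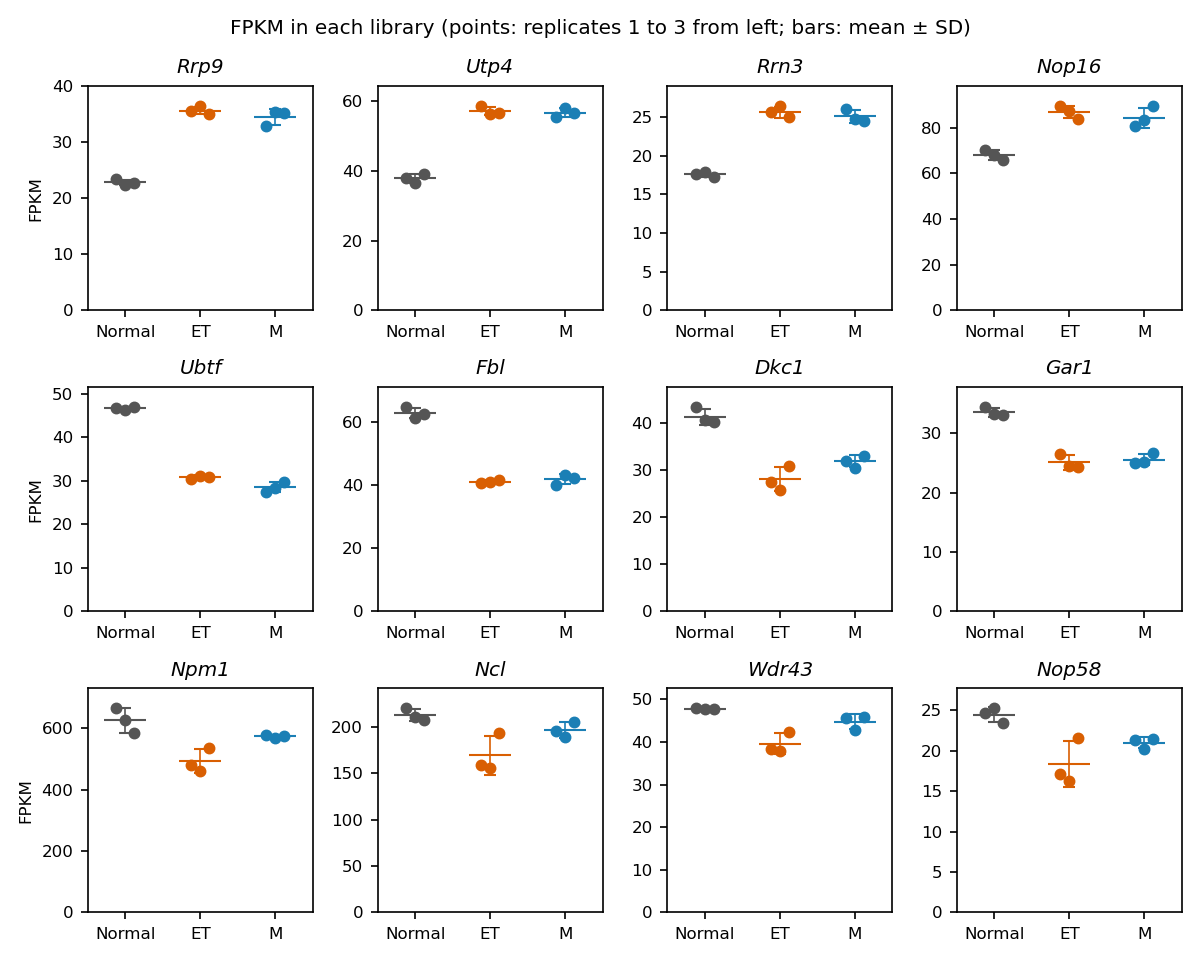
FPKM of 12 genes in each library (points, replicates 1 to 3 from left to right in Normal, ET and M), with mean and SD of each group as bars; each axis starts at 0. The first 2 rows hold the 4 largest rises and 4 largest falls. These were picked by their change in these same libraries, so the lack of overlap between Normal and treated libraries follows largely from the choice. Utp18, Pes1, Wdr12 and Rrp1, not shown and not called, did not overlap either. The last row shows Npm1, Ncl, Wdr43 and Nop58, where ET replicates 1 and 2 lie lowest.

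Among the transcription-coupled proteins of the small-subunit processome, which bind the precursor while it is being made, 1 of 5 rose and 1 fell. Of all genes 36.8% were called higher and 36.8% lower. Utp4, a WD-repeat protein also known as cirhin, stood at 38.1, 36.5 and 39 FPKM in Normal, 58.5, 56.4 and 56.7 in ET and 55.5, 57.9 and 56.6 in M. Treated libraries lay within 55.5 to 58.5 FPKM in both groups, and the log2 change was 0.67 (SE 0.033), adjusted p = 1.3e-09. The difference between M and ET was -0.0013 (SE 0.037). Wdr43 (ENSMUSG00000041057, chromosome 17, 71615895 to 71659031), a WD-repeat protein that ties transcription to processing, gave 47.9, 47.8 and 47.7 FPKM in Normal, 38.5, 37.9 and 42.4 in ET and 45.7, 42.8 and 45.8 in M. The 3 Normal libraries differed little, and the treated log2 change was -0.10 (SE 0.041), adjusted p = 0.0405. That call was lost without any one of 7 of the 9 libraries (adjusted p from 0.056 to 0.103) and held without ET replicate 3 or M replicate 1. Heatr1, Utp15 and Wdr75, partners of Utp4 and Wdr43 in this complex, were not called, with log2 changes of 0.041, 0.022 and 0.033, and these signs turn with total counts as the scaling.

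Other processome proteins split into 2 higher, 2 lower and 2 not called, where 36.8% of all genes were called higher and 36.8% lower. Utp3, a processome assembly factor, had treated levels of 34.5 ± 1.46 FPKM in ET and 36.8 ± 0.520 in M against 44.3 ± 1.23 in Normal and fell by 0.23 (adjusted p = 0.000123). Utp14a, which activates the helicase that frees the U3 snoRNA, fell by 0.18 (adjusted p = 0.00439). Utp6, a protein that stabilises the particle, and Nop14, a partner of the methyltransferase Emg1, rose by 0.12 and 0.14 (adjusted p = 0.0158 and 0.0217), but their FPKM ranges overlapped between Normal and treated libraries. Neither was called with total counts as the scaling, without a filter, or in limma on FPKM (adjusted p up to 0.449 for Utp6 and 0.297 for Nop14). The call of Utp6 was also lost without Normal replicate 1, and that of Nop14 without Normal replicate 2. Utp18, which docks the exosome, and Utp20, a large repeat protein, were not called (-0.064 and -0.057), but both were called lower with total counts as the scaling and in limma on FPKM (down to -0.15 and -0.14), and Utp20 also without ET replicate 3.

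Of the late small-subunit maturation factors, which act on the pre-ribosome on its way to the cytoplasm, 3 of 4 rose and 1 fell. Of all genes 36.8% were called higher and 36.8% lower. Rrp12, needed for export of the particles, stood at 22 ± 0.292 FPKM in Normal, 27.6 ± 0.552 in ET and 27.5 ± 0.504 in M, a log2 change of 0.41 (SE 0.030), adjusted p = 6.89e-08. Ltv1, an assembly factor of the head of the small subunit, rose by 0.26 (adjusted p = 0.000273). Bysl, bystin, rose by 0.19 (adjusted p = 0.00203) and was not called in limma on FPKM (adjusted p up to 0.0543). Its M libraries (21.5, 22.4 and 21.5 FPKM) all lay within the Normal range (19.5 to 22.5). In M alone its rise of 0.14 (adjusted p = 0.0246) lost its call in 8 of 19 alternatives. The span of Bysl shares 359 bases with that of Ccnd3 on the other strand, whose mean count was 97.5% of that of Bysl. Nob1, the nuclease that makes the last cut at the end of the small-subunit RNA, fell by 0.11 (adjusted p = 0.0129), a call lost without Normal replicate 2 (adjusted p = 0.0627).

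The 3 genes of the PeBoW complex, which processes the precursor of the large subunit, did not move together. Pes1, pescadillo, stood at 83.3, 81.3 and 82.6 FPKM in Normal, 80.3, 78.6 and 73.1 in ET and 73.8, 74.4 and 77 in M. Normal libraries were highest by a small margin in FPKM, and the log2 change of -0.031 (SE 0.034) was not called (adjusted p = 0.419) but was called lower with total counts as the scaling and in limma on FPKM (down to -0.12). Bop1, its direct partner, went from 68.6 ± 2.18 FPKM to 84 ± 2.06 in ET and 83.9 ± 0.505 in M, a log2 change of 0.37 (SE 0.031), adjusted p = 2.45e-07. The span of Bop1 shares 50 bases with that of Mroh1 on the other strand, whose mean count was 46.5% of that of Bop1. Wdr12, the remaining subunit, was the least abundant at 9.85 ± 0.110 FPKM in Normal and was not called (-0.040), but was called lower with total counts and in limma (down to -0.13).

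Of the other large-subunit processing factors 3 of 5 rose and none fell, where 36.8% of all genes were called higher and 36.8% lower. Nop16, a nucleolar protein of early large-subunit particles, stood at 70.1, 68 and 65.7 FPKM in Normal, 89.4, 87.1 and 83.9 in ET and 80.7, 83.3 and 89.3 in M. All treated libraries lay above Normal, and the log2 change was 0.41 (SE 0.040), adjusted p = 8.33e-07. Nop2, a methyltransferase of the large-subunit RNA and a known marker of proliferation, rose by 0.16 (adjusted p = 0.000507), with 1 M library inside the Normal range. Rrp8, another methyltransferase of the large-subunit RNA, rose by 0.13 (adjusted p = 0.0176), with overlapping FPKM ranges. That call was lost without Normal replicate 1, with total counts and in limma (adjusted p up to 0.371). The span of Rrp8 shares 794 bases with that of Ilk on the other strand, whose mean count was 31.2% of that of Rrp8. Heatr1 shares 875 bases in this way with Lgals8, Dkc1 45 with Mpp1, Nhp2 44 with Rmnd5b and Nop56 5 with Idh3b. Rrp1 and Rrp15, nucleolar proteins of the early large-subunit particle, were not called (0.011 and 0.050). With total counts as the scaling the sign of Rrp1 turned and it was called lower (down to -0.074, adjusted p down to 0.0373 over the alternatives).

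The direct comparison of the treated groups, M against ET, asks whether the extract altered the level of these genes under LPS, in a direction that depends on which label is right. Of the 39 genes 2 were higher in M, Npm1 and Wdr43, and 0 were lower, where 4.97% of all genes were called higher and 4.12% lower. At an unadjusted p under 0.05 there were 7 higher and 1 lower, where 14.2% of all genes passed as higher and 11.3% as lower. DESeq2 called 4 higher (Npm1, Wdr43, Ncl and Dkc1) and 1 lower (Ubtf), where it called 7.91% of the genes to which it gave an adjusted p higher and 6.96% lower. Npm1 was 0.23 (SE 0.056) higher on the log2 scale (adjusted p = 0.025), with M libraries at 569 to 576 FPKM and ET libraries at 462 to 535. Wdr43 was 0.19 (SE 0.047) higher (adjusted p = 0.0277), with M at 42.8 to 45.8 FPKM and ET at 37.9 to 42.4. In both genes no M library overlapped an ET library, and in both ET replicate 3 was the ET library nearest to M. Lack of overlap was not particular to these genes. It also held for Utp3 and Utp14a, higher in M, and for Bysl and Ubtf, lower in M, none of them called. The share of all genes without overlap was not counted. Ncl (0.22, adjusted p = 0.0645), Dkc1 (0.20, adjusted p = 0.0701) and Nop58 (0.21, adjusted p = 0.143) leaned the same way and were not called.

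This comparison turned on single libraries. Without ET replicate 3 edgeR called 7 of the 39 higher in M and 0 lower, where 9.72% of all genes were called higher and 6.13% lower. They were Nop58 (0.34, adjusted p = 0.000603), Ncl (0.33, adjusted p = 0.000251), Npm1 (0.29, adjusted p = 0.00174), Dkc1 (0.27, adjusted p = 0.00493), Wdr43 (0.24, adjusted p = 0.00206), Utp6 (0.15, adjusted p = 0.0437) and Utp20 (0.13, adjusted p = 0.045). When replicate 1 or 2 of ET, or 1 or 3 of M, was left out, none of the 39 was called higher, where 2.30%, 2.53%, 2.54% and 2.51% of all genes were, in that order. Without M replicate 2 only Wdr43 was called higher, where 3.19% of all genes were. For the largest rises of the treated cells the M minus ET differences were -0.037 (SE 0.040) for Rrp9, -0.019 (SE 0.039) for Rrn3 and -0.029 (SE 0.045) for Nop16, none of them called.

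The rest of the pathway was read from 5 further lists of genes. Over all genes tested 36.8% were called higher and 36.8% lower in the treated mean. Of 38 other small-subunit factors 19 (50%) rose and 9 (23.7%) fell in the treated mean, with a median log2 change of 0.098. Riok3, a kinase that acts late in small-subunit maturation, had the largest rise (1.04, adjusted p = 3.53e-11), and Bud23, which methylates the small-subunit RNA, the largest fall (-0.71, adjusted p = 1.65e-07). Of 47 other large-subunit factors 20 (42.6%) rose and 16 (34%) fell (median 0.034). The extremes were Ddx24, a helicase, at 0.88 and Ppan, an early large-subunit factor, at -0.70. Both lists thus held members that rose and members that fell, as the 39 genes did.

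Of 18 other RNA polymerase I subunits and factors 5 (27.8%) rose and 5 (27.8%) fell (median -0.029), beside 36.8% and 36.8% of all genes. Cd3eap, a polymerase subunit also named Polr1g, rose by 0.46 (adjusted p = 1.11e-05), and Taf1d, of the selectivity factor at the ribosomal promoter, fell by 0.41 (adjusted p = 0.000174). Of 12 snoRNP assembly factors 4 (33.3%) rose and 7 (58.3%) fell (median -0.12), with Znhit3 at 0.46 and Pih1d1 at -0.47. Of 24 tested genes of the exosome, RNase MRP and pre-rRNA nucleases 5 (20.8%) rose and 9 (37.5%) fell (median -0.15). The extremes were Pop1 at 0.78 and Rpp25, another protein of that RNase, at -1.30. Exosc6 did not pass the filter. Between M and ET only Nufip1 (0.22, adjusted p = 0.0432) and Brix1 (0.22, adjusted p = 0.0439) of these lists were called, both higher in M. Of all genes 4.97% were called higher and 4.12% lower there. In the deposited KEGG term for ribosome biogenesis, which holds 16 of the 39 genes, 29 of 73 tested genes rose and 25 fell in the treated mean. This is near the 36.8% of all genes called each way.

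**Figure D4:**
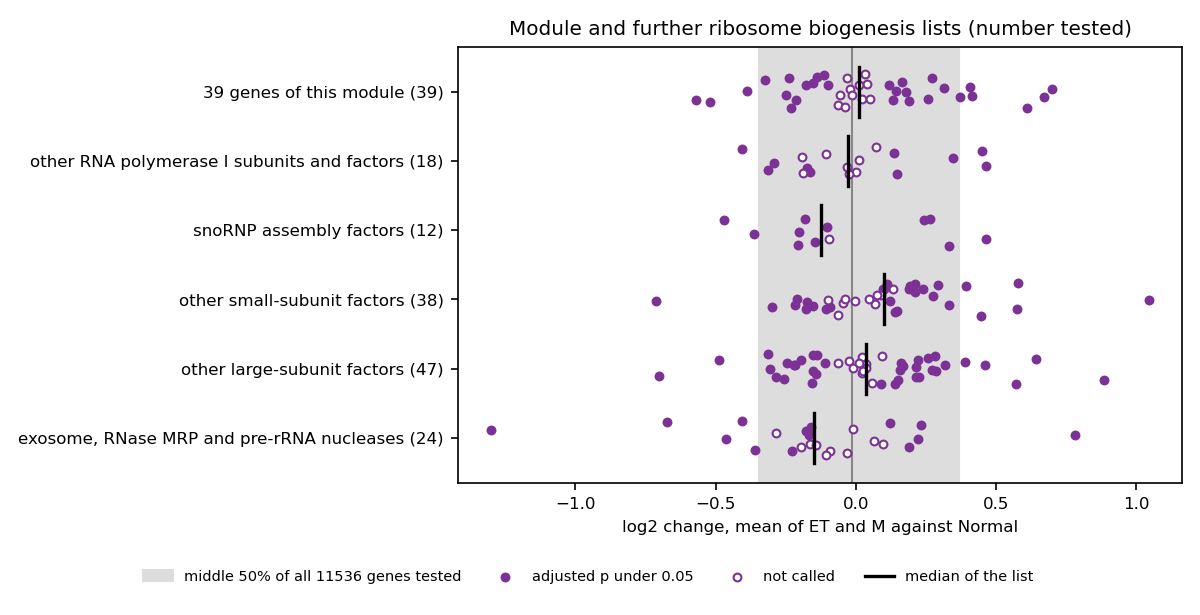
Log2 change of the treated mean from Normal (horizontal axis) for the 39 genes and for 5 further lists of the pathway, 1 point per gene, filled where the adjusted p was under 0.05; black bars are list medians, the grey band is the middle 50% of all 11536 genes tested and the grey line their median. Medians run from -0.15 for the exosome and RNase MRP list to 0.098 for the other small-subunit factors.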

How the data were processed

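Poly(A) RNA of 9 libraries was sequenced with a kit that marks strand, per the labels' protocols. Reads were trimmed with cutadapt 1.9, aligned with HISAT2 2.2.1 and assembled with StringTie 2.1.6, per the submitters' processing notes, which also name DESeq2 and edgeR. The deposited table holds whole-number counts and FPKM per gene and library, both made by the authors, per the file headers. The genome build, counting tool and strand setting are not given in the sources used here. Deposited gene coordinates were identical to GENCODE M21 (GRCm38) for 23547 of 26146 genes (90.1%) and 35 of the 39 members (89.7%).

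From the counts, edgeR 4.0.16 (R 4.3.3) fitted the quasi-likelihood model of 3 groups with TMM factors to the 11536 genes that reached 1 FPKM in 3 or more of the 9 libraries. P-values were adjusted by Benjamini-Hochberg over all of these at 0.05. FPKM served for levels and, with limma 3.58.1 on log2(FPKM + 1) and log2(FPKM + 0.1), for alternatives. Other alternatives were DESeq2 1.42.0, other scalings, filters and thresholds, a replicate block, fits of 6 libraries and leaving out each library. The fits were also run on simulated data with planted changes of 2-fold and of smaller sizes, where a set share had to be recovered only at 2-fold. None of the 39 genes changed that much, and how many of the smaller planted changes were recovered is not given here. FPKM changes lie below the TMM-scaled ones, because TMM factors were 1.036 to 1.045 in Normal and 0.97 to 0.987 in treated libraries. Depth, 55039858 to 76242718 counts, leaves counting error small for these genes.

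The members, the pathway lists and the markers were chosen with earlier results of these data known. Values in every library are given for the 4 largest called rises and falls of the treated mean and of M against ET, and for Ncl, Npm1, Fbl, Dkc1, Polr1a, Polr1b, Ubtf, Rrn3 and Pes1. Of each pathway list the largest called rise and fall are named. A planned count of a protein motif was not run, since no protein table was used here.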

Additional observations from a re-analysis of the deposited data

Results flagged for a closer look

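For 2 of the 39 genes (5.13%) the change from Normal differed between the treated groups in a test of the difference itself. Over all genes tested 4.97% were called higher in M than in ET and 4.12% lower, so the count does not stand out. Npm1, the nucleolar chaperone, changed by -0.27 in ET and -0.037 in M on the log2 scale, a difference of 0.231 (edgeR adjusted p = 0.025). Wdr43, of the small-subunit processome, changed by -0.19 in ET and -0.0062 in M, a difference of 0.188 (adjusted p = 0.0277). Without ET replicate 3, which lay nearest to M in both genes, the differences were 0.29 and 0.24, and when replicate 1 or 2 of ET, or 1 or 3 of M, was left out, neither was called (adjusted p from 0.0791 to 0.117). Without M replicate 2 the adjusted p was 0.0613 for Npm1 and 0.0334 for Wdr43. Which of these groups had the extract cannot be settled from the labels.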

How the results depend on the processing

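Over the alternatives run, 20 of the 28 calls of the treated mean held in every one, 24 of 27 in ET, 16 of 21 in M and 0 of 2 between M and ET, and no called gene changed direction. Some members not called in the main analysis were called, with the same sign, under at least 1 alternative. For the treated mean these were 5 of 11 (Polr1c, Utp18, Utp20, Pes1 and Wdr12, all lower, with total counts and in limma). They were 4 of 12 for ET, 7 of 18 for M and 6 of 37 for M against ET. Rrp1 is not among these, since its sign turned. With total counts it was called lower in the treated mean and in M (adjusted p down to 0.0373 and 0.0346 over the alternatives). Uncalled members changed sign somewhere in 7 cases for the treated mean, 9 for ET, 11 for M and 12 for M against ET. In M against Normal, total counts gave 9 higher and 14 lower, where 29.9% of all genes were called higher and 41.3% lower. There limma gave 9 and 14 with a pseudocount of 1 and 9 and 13 with 0.1. In M against ET, 0 were higher without a filter, 4 in DESeq2, 1 and 0 in limma with pseudocounts of 1 and 0.1, 1 in the fit of 6 libraries and 0 at an adjusted p of 0.01, and DESeq2 called 1 lower. Of the genes to which DESeq2 gave an adjusted p, it called 7.91% higher and 6.96% lower. Leaving out each library in turn gave 13 to 15 higher and 10 to 14 lower in the treated mean, 12 to 14 and 12 to 13 in ET, 12 to 15 and 7 to 10 in M, and 0 to 7 and 0 to 0 between M and ET. With a single ET or M library left out, 2.30% to 9.72% of all genes were called higher in M than in ET. Deviations from the group means correlated at -0.093 to 0.0551 between same-numbered libraries and at -0.105 to 0.111 between the others. Between ET and M the same-numbered pairs gave 0.034, 0.0551 and 0.0389, and the other pairs -0.0432 to 0.002. Whether the numbers pair the libraries is not stated, and such small values cannot settle it. With a replicate block the treated mean gave 15 higher and 13 lower calls, followed by 14 and 13 in ET, 15 and 8 in M, and 3 and 0 between M and ET. Where no cause is shown by the alternative itself, the cause was not tested.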

Other observations

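Ratios of transcript level between genes of the pathway moved for some pairs and overlapped for others. These ratios of FPKM were chosen after the values were seen and are a description with no test. Bop1 to Pes1 went from 0.833 ± 0.0176 in Normal (SD, n = 3) to 1.09 ± 0.0289 in ET and 1.12 ± 0.0184 in M, and no treated library overlapped Normal. Rrp9 to Fbl, the U3-specific protein against the methyltransferase of all box C/D particles, went from 0.363 to 0.868 in ET and 0.824 in M. Rrn3 to Ubtf went from 0.377 to 0.831 and 0.881. Both of these pairs set a gene among the largest rises over a gene among the largest falls, so their shift follows from the choice. Dkc1 to Nop10 fell from 0.912 to 0.552 and 0.607. Fbl to Nop56 fell from 0.624 to 0.521 and 0.514, with no treated library in the Normal range. Nhp2 to Gar1 (3.83, 4.23 and 4.04) overlapped between Normal and M, and Polr1a to Polr1b (0.858, 0.909 and 0.979) between Normal and ET. By contrast Pes1 to Wdr12 stood at 8.36 in Normal, 8.41 in ET and 8.45 in M, with overlapping ranges, as did Nop56 to Nop58 (4.14, 4.38 and 3.88).

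Genes of small nucleolar RNAs lie inside 5 of the 39 members: 3 in Ncl, 5 in Nop56, 4 in Nop58, 1 in Dkc1 and 3 in Wdr43, by GENCODE M21 and on the same strand. All 5 were called lower in the treated mean and in ET, and 2 of the 5 (Nop56 and Dkc1) were called lower in M. Of all genes 36.8% were called lower in the treated mean, 35.2% in ET and 34.5% in M. The treated-mean calls of Ncl and Wdr43 were lost without most single libraries. In M against ET 1 of the 5 was called higher, where 4.97% of all genes were. All 5 differences were above 0 (median 0.20), as were 118 of the 198 other tested host genes and 5865 of all 11536 genes. Among these 198 hosts that are no members, 55 (27.8%) rose and 92 (46.5%) fell in the mean of both treated groups, with a median of -0.085, against 36.8% and 36.8% of all genes. In M against ET 9 of the 198 (4.55%) were called higher and 5 (2.53%) lower, near the 4.97% and 4.12% of all genes. The set was looked at after the members' values were seen, and no test was run on it.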
